A study of Homo sapiens with 8 samples.

Results

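Antigen presentation depends on genes of the major histocompatibility complex (MHC) on chromosome 6 and on partners encoded elsewhere in the genome. Among the 38551 genes with counts, 9 were chosen by name for their role and for their location outside the MHC. These were B2M, ERAP1, ERAP2, NLRC5, CIITA, CD74, RFX5, RFXAP and RFXANK. The rule itself used no measured value. All 9 passed the filter on low counts that left 13179 genes for testing.

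RNA-sequencing of polyA RNA was compared between 4 libraries of MOLM-13 cells exposed to the diluent DMSO for 72 h and 4 libraries of MOLM-13 cells exposed to PR-957 at 100 nM for the same 72 h. MOLM-13 is an established human acute myeloid leukemia line with a rearranged KMT2A gene, so every library came from the same line and no other genotype was present. PR-957, also named ONX-0914, blocks PSMB8, which is among the catalytic subunits of the immunoproteasome, the proteasome form that generates many of the peptides presented on class I molecules. The comparison asked how expression changes when that subunit is inhibited. Total counts per library ran from 16675036 to 23111223. DMSO replicate 4 was the deepest library and stood apart from the other DMSO libraries, with a chi-square of counts per gene of 10.3 to 15.5 against them, compared with 3.29 to 5.79 among the other 3, and no pair was close enough to be the same library. The share of counts from mitochondrial genes was 1.94 to 2.75% in DMSO and 4.15 to 5.24% in PR-957 libraries, and its part in the results was not tested.

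The cell line was checked by marker genes. Of 11 myeloid markers, 10 were tested, and their summed level was 985 to 1078 CPM (counts scaled to a common library size) in controls and 1771 to 2051 CPM in treated cells. LYZ (lysozyme) rose by 2.42 and MPO (myeloperoxidase) by 1.53 on the log2 scale, while FLT3, a receptor kinase of progenitors, fell by 0.98 and HOXA9, a homeobox factor, fell by 0.61 (edgeR quasi-likelihood test with Benjamini-Hochberg adjustment, adjusted p of 7.92e-10, 1.26e-12, 1.10e-09 and 0.00144). Among the same markers SPI1 rose by 0.20 and MEIS1 fell by 0.34 (edgeR, adjusted p = 0.00607 and 0.000327), and CD14, a monocyte marker, held 0 to 12 counts per library. Of 11 markers of other cell types, 4 were tested and 0 passed an adjusted p of 0.05 by edgeR, DESeq2 or limma-voom, with 1 (NKG7) at an unadjusted p under 0.05 by each tool, and with summed levels of 35.6 to 45.5 CPM in control and 39.9 to 47.6 CPM in treated libraries. The T cell marker CD3E had 0 counts in every library and the B cell marker MS4A1 had at most 1, whereas the B-lineage factor PAX5 was present at 17.1 CPM in control and 14.6 CPM in treated libraries, and the cytotoxic granule gene NKG7 at 22.0 and 26.4 CPM. Thus 3 myeloid markers rose and 3 fell, 6 of 10 tested against 46.6% of all tested genes, and CD33, CSF1R, ITGAM and CD68 did not pass the threshold. LYZ, at 153 CPM in control and 820.0 CPM in treated libraries, and MPO, at 175 and 506 CPM, carried most of the higher summed level. The part of these differences in the results below was not tested. In bulk RNA, a different share of cells in some state and a different amount of RNA per cell cannot be told apart.

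Class I molecules present peptides from inside the cell to CD8 T cells and are held together by the light chain beta-2-microglobulin, the product of B2M. Peptides are cut by the proteasome, moved into the endoplasmic reticulum by the TAP transporter and trimmed there by the aminopeptidases ERAP1 and ERAP2. Class II molecules carry peptides from endosomes and are guided there by the invariant chain CD74. The promoters of both classes share a conserved module of S, X and Y boxes. The RFX complex, made of RFX5, RFXAP and RFXANK, binds the X box, factors of the CREB and ATF family bind its second part and NF-Y binds the Y box, which holds a CCAAT motif. NLRC5 and CIITA do not bind the DNA themselves. They dock on this assembly as co-activators, NLRC5 mainly at class I genes and B2M and CIITA mainly at class II genes and CD74. Interferon-gamma induces both of them, and interferon regulatory factors act on many of these genes.

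The promoters of B2M and CD74 are shown because they are the targets of this assembly among the 9 genes, of which CD74 fell and B2M did not pass the threshold. Sequences are from RefSeq (GRCh38.p14) and hold the 250 bases before the annotated start, 5′ to 3′ on the strand of the gene. The B2M window is chr15:44711267-44711516 on the plus strand and the CD74 window is chr5:150412911-150413160 on the minus strand. Their last 25 and 26 bases lay within exons of the deposited gene models. Capitals mark every match, on either strand, to the CCAAT box (CCAAT), the core of the X1 box (GCAAC), the CRE core (TGACG) and the core of the interferon-stimulated response element (ISRE, GAAANNGAA).
B2M: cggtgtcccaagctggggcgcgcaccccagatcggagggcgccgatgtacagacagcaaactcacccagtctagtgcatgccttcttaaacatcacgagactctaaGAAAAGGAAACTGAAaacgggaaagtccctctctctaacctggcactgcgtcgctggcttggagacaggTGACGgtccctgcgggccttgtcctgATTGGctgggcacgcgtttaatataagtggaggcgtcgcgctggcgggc
CD74: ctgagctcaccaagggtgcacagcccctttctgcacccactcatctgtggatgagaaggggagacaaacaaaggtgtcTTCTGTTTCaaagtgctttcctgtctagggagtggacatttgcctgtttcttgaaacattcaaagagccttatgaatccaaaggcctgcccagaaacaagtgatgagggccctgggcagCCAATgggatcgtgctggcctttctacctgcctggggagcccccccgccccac
In B2M, a pair of overlapping ISRE cores began 144 and 138 bases before the start, a CRE core 75 bases before it and a reverse-strand CCAAT box 49 bases before it. In CD74, a CCAAT box began 53 bases before the start and a reverse-strand ISRE core 172 bases before it. Of the 9 genes, 7 matched the RefSeq promoter table by symbol, with 13 windows in all, several of which overlap within a gene. NLRC5 and CIITA were not matched. A CCAAT box was found in 4 of the 13 windows and in 32.0% of all 35116 windows of that length, an X1 core in 5 and 28.2%, a CRE core in 4 and 21.2%, and an ISRE core in 4 and 6.88%. The X1 cores were in windows of ERAP1, RFX5 and RFXANK, and neither the B2M nor the CD74 window held one. The ISRE cores were in windows of B2M, CD74, ERAP2 and RFX5. The ERAP2 match, 30 bases before the start of its second window, lay within an exon of the deposited gene models. A match describes letters only.

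Transcripts of most of the 9 genes were modestly lower in PR-957 libraries, and that of NLRC5 was higher. ERAP1, ERAP2, CD74, RFX5, RFXAP and RFXANK fell, NLRC5 rose, and B2M and CIITA did not pass the threshold. Thus 7 of 9 were called at an adjusted p under 0.05, where 46.6% of all tested genes were called in either direction. In the separate directions, 1 of 9 was higher against 23.1% of all genes, and 6 of 9 were lower against 23.5%. Scaling by library totals alone moved this balance to 30.9% of all genes higher and 17.9% lower, with 1 of 9 higher and 5 of 9 lower. The median log2 fold change of the 9 genes was -0.32, beside 0.003 over all tested genes. Changes were small, between 0.698-fold and 1.35-fold, and 0 of 9 genes reached a 1.5-fold change, which 13.8% of all tested genes did while passing the threshold. Every PR-957 library lay below every DMSO library for 4 of the 9 genes, against 21.7% of all tested genes. The reverse held for 1 of the 9, against 20.8% of all tested genes. DMSO replicate 4 was the lowest DMSO library for 7 of the 9 genes, and PR-957 replicate 4 was the lowest of its group for 5. Without DMSO replicate 4, again 7 of 9 genes were called.

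**Figure D1:**
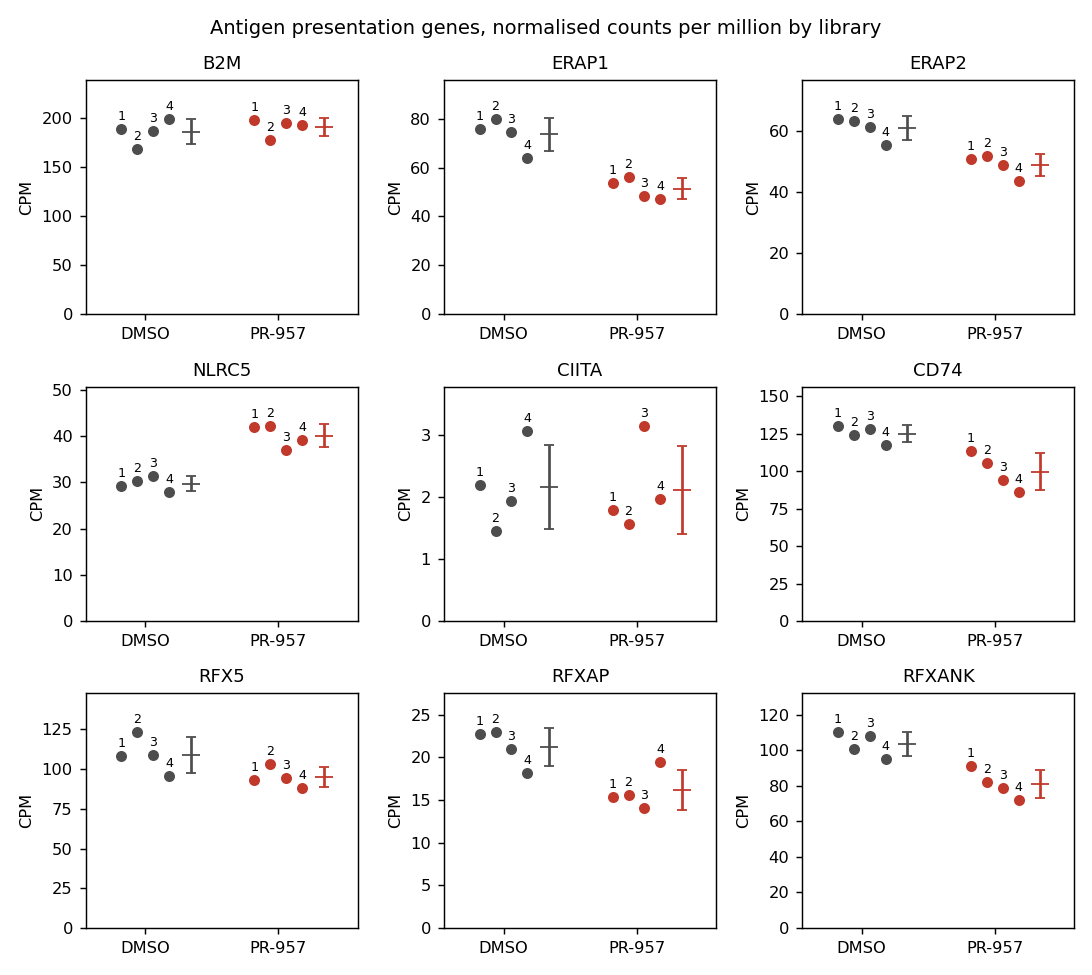
Normalised CPM (y axis, from 0) of the 9 genes in each of the 4 DMSO libraries (grey) and 4 PR-957 libraries (red), with replicate numbers above the points and mean ± SD to their right. NLRC5 is the only panel in which every PR-957 point lies above every DMSO point, and ERAP1, ERAP2, CD74 and RFXANK are those in which every PR-957 point lies below.

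B2M, the class I light chain, lies at chr15:44711492-44718877 on the plus strand. Its counts need a caution, since it was the only 1 of the 9 genes whose deposited gene model also sat on an alternate contig. Of the 3379 windows of 100 bases within its exons, 2921 (86.4%) occurred letter for letter on that contig, whereas the other 8 genes had 0 such windows. The counting command set no option for reads that align to several places, so the level of B2M cannot be compared with that of other genes, and an effect on its change was not tested. Normalised B2M values in DMSO replicates 1 to 4 were 189.5, 169, 187 and 199 CPM, and in PR-957 replicates 1 to 4 they were 198, 178, 195 and 193 CPM. All 4 PR-957 values lay inside the DMSO range. The mean was 186 ± 12.8 CPM (SD, n = 4) without and 191 ± 9.10 CPM (SD, n = 4) with the inhibitor, a log2 fold change of 0.04 (SE 0.06) that did not pass the threshold (edgeR, adjusted p = 0.634).

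ERAP1 and ERAP2 trim the amino terminus of peptides in the endoplasmic reticulum so that they fit the class I groove. ERAP1 lies at chr5:96760273-96935983 on the minus strand and ERAP2 at chr5:96875939-96919716 on the plus strand. In the deposited models ERAP2 thus falls within the span of ERAP1, on the opposite strand. ERAP1 was present at 75.7, 79.9, 74.6 and 64.0 CPM in DMSO replicates 1 to 4 and at 53.5, 56.2, 48.3 and 47.1 CPM in PR-957 replicates 1 to 4. Every treated library was below every control library. ERAP1 fell from 73.5 ± 6.77 to 51.3 ± 4.32 CPM (SD, n = 4 each), with a log2 fold change of -0.52 (SE 0.07, edgeR adjusted p = 1.19e-05), the largest change among the 9 genes. In ERAP1, 9.28% of the exon bases are shared with LNPEP, 2.77% with CAST and 5.31% with LOC102724748, all on the opposite strand. Over 11 genes that lie almost fully within a highly counted gene of the opposite strand, the ratio of their count density to that of the other gene had a median of 0.0044 and ran from 0 to 0.714, with 8 of 11 at or below 0.1, so the counting followed strand.

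ERAP2 was measured at 63.9, 63.4, 61.3 and 55.3 CPM in DMSO replicates 1 to 4 and at 50.9, 51.7, 48.9 and 43.8 CPM in PR-957 replicates 1 to 4. The groups did not overlap, and replicate 4 was the lowest in each. ERAP2 fell from 61.0 ± 3.97 to 48.8 ± 3.57 CPM (SD, n = 4 each), with a log2 fold change of -0.32 (SE 0.07, edgeR adjusted p = 0.000681). Within replicates 1 and 2 alone the log2 fold changes of ERAP1 and ERAP2 were -0.50 and -0.31, and within replicates 3 and 4 alone they were -0.54 and -0.33. Either enzyme thus passed the threshold in both subsets of libraries.

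NLRC5, the class I co-activator, lies at chr16:56989547-57083524 on the plus strand. Its values were 29.2, 30.4, 31.5 and 27.8 CPM in DMSO replicates 1 to 4 and 41.8, 42.2, 36.9 and 39.1 CPM in PR-957 replicates 1 to 4. The lowest treated library was above the highest control library. NLRC5 rose from 29.7 ± 1.56 to 40.0 ± 2.48 CPM (SD, n = 4 each), with a log2 fold change of 0.43 (SE 0.07, edgeR adjusted p = 4.75e-05). It was the 1 gene of the 9 that rose, by 0.50 within replicates 1 and 2 and by 0.36 within replicates 3 and 4 (edgeR, adjusted p = 0.0119 in the latter).

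CIITA, the class II co-activator, lies at chr16:10866208-10941562 on the plus strand and was close to the limit of what these libraries resolve. It held 35, 26, 32 and 70 counts in DMSO replicates 1 to 4 and 32, 30, 69 and 35 counts in PR-957 replicates 1 to 4. A single library in each group, DMSO replicate 4 and PR-957 replicate 3, stood above the others of its group, and the groups overlapped. These were also the deepest libraries of their groups, yet after normalisation they remained the highest, at 3.06 and 3.15 CPM against 1.45 to 2.19 CPM in the remaining 6. The mean was 2.16 ± 0.675 CPM without and 2.12 ± 0.708 CPM with the inhibitor (SD, n = 4 each), and the log2 fold change of -0.03 (SE 0.27) did not pass the threshold (edgeR, adjusted p = 0.935). Without DMSO replicate 4 it was 0.21 (edgeR, adjusted p = 0.563), so that no direction could be given for CIITA at this depth. Of its exon bases, 3.37% are shared with DEXI on the opposite strand.

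CD74, the invariant chain and a target of the class II assembly, lies at chr5:150400041-150412936 on the minus strand. It was present at 130.4, 124, 128 and 117 CPM in DMSO replicates 1 to 4 and at 113, 106, 93.9 and 86.0 CPM in PR-957 replicates 1 to 4. The groups did not overlap, although PR-957 replicate 1 came near to DMSO replicate 4. CD74 fell from 125 ± 5.72 to 99.7 ± 12.1 CPM (SD, n = 4 each), with a log2 fold change of -0.33 (SE 0.07, edgeR adjusted p = 0.00125). The log2 fold change was -0.22 within replicates 1 and 2 and -0.45 within replicates 3 and 4, and passed the threshold in both (edgeR, adjusted p = 0.00951 and 0.000523). A difference between these subsets was not tested. Of the CD74 exon bases, 6.56% are shared with TCOF1 on the opposite strand.

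All 3 subunits of the RFX complex fell. RFXANK, its ankyrin repeat subunit, lies at chr19:19192199-19201869 on the plus strand and had 110.0, 101, 108 and 95.3 CPM in DMSO replicates 1 to 4 and 91.2, 81.9, 78.9 and 72.0 CPM in PR-957 replicates 1 to 4. No treated library reached the control range. RFXANK fell from 104 ± 6.77 to 81.0 ± 7.97 CPM (SD, n = 4 each), with a log2 fold change of -0.35 (SE 0.07, edgeR adjusted p = 0.000324). Of its exon bases, 12.2% are shared with NR2C2AP on the opposite strand.

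RFXAP, the RFX-associated protein, lies at chr13:36819202-36829603 on the plus strand. Its values were 22.8, 22.9, 20.9 and 18.2 CPM in DMSO replicates 1 to 4 and 15.4, 15.6, 14.1 and 19.5 CPM in PR-957 replicates 1 to 4. PR-957 replicate 4 was above DMSO replicate 4, so the groups overlapped, with 3 of 4 treated libraries below the control range. RFXAP fell from 21.2 ± 2.20 to 16.1 ± 2.34 CPM (SD, n = 4 each), with a log2 fold change of -0.39 (SE 0.10, edgeR adjusted p = 0.00405). The call was not reached within replicates 3 and 4, where the log2 fold change was -0.23 (edgeR, adjusted p = 0.266), while it was -0.56 within replicates 1 and 2.

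RFX5, the subunit with the DNA-binding domain, lies at chr1:151340640-151347319 on the minus strand. It was measured at 108, 123, 109 and 95.5 CPM in DMSO replicates 1 to 4 and at 93.3, 103, 94.5 and 88.1 CPM in PR-957 replicates 1 to 4. PR-957 replicate 2 lay within the control range and the other 3 treated libraries lay below it. RFX5 fell from 109 ± 11.2 to 94.8 ± 6.32 CPM (SD, n = 4 each), with a log2 fold change of -0.20 (SE 0.07, edgeR adjusted p = 0.0260), the smallest change and the weakest call among the 7 genes. The call passed the threshold in 12 of 19 other settings and was lost, for example, without DMSO replicate 2 (log2 fold change -0.14, edgeR adjusted p = 0.119) and with scaling by library totals alone (-0.12, adjusted p = 0.156).

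**Figure D2:**
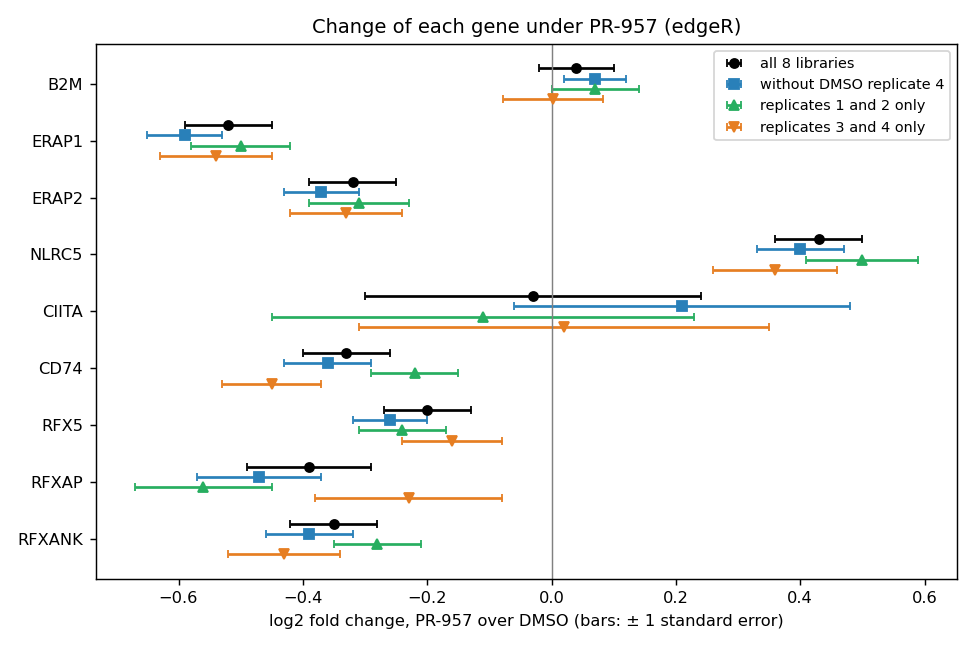
Log2 fold change of PR-957 over DMSO (x axis) for each of the 9 genes, with bars of ± 1 standard error, fitted on all 8 libraries (black circles), without DMSO replicate 4 (blue squares), on replicates 1 and 2 only (green triangles) and on replicates 3 and 4 only (orange triangles). The markers of ERAP1, ERAP2, CD74, RFX5, RFXAP and RFXANK all lie left of 0 and those of NLRC5 all lie right of it, while those of CIITA fall on both sides.

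Levels between genes were compared as FPKM, the CPM divided by the summed length of all annotated exons of a gene in kilobases, which understates genes with long, rarely used exons. B2M was left out for the reason given above. In DMSO libraries, mean FPKM levels were 57.0 for RFXANK (range 52.5 to 60.6), 30.6 for CD74 (28.7 to 31.9) and 27.4 for RFX5 (24.0 to 30.9). They were 10.2 for ERAP2 (9.23 to 10.7), 7.51 for RFXAP (6.45 to 8.12), 6.80 for ERAP1 (5.92 to 7.39) and 3.84 for NLRC5 (3.59 to 4.06). CIITA came last at 0.109 FPKM (0.0729 to 0.154). Among neighbours in this order, the ranges of CD74 and RFX5 overlapped, as did those of RFXAP and ERAP1, and all other neighbours were apart. The RFX subunits thus stood far from each other in FPKM, with RFXAP the lowest of the 3. In CPM, without division by exon length, RFXANK and RFX5 were close in DMSO libraries, at means of 104 and 109. RFXAP was at 21.2 CPM. In PR-957 libraries NLRC5 at 5.17 FPKM (4.77 to 5.45) and ERAP1 at 4.74 FPKM (4.35 to 5.20) had changed places in the order of the means, although their ranges overlapped.

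**Figure D3:**
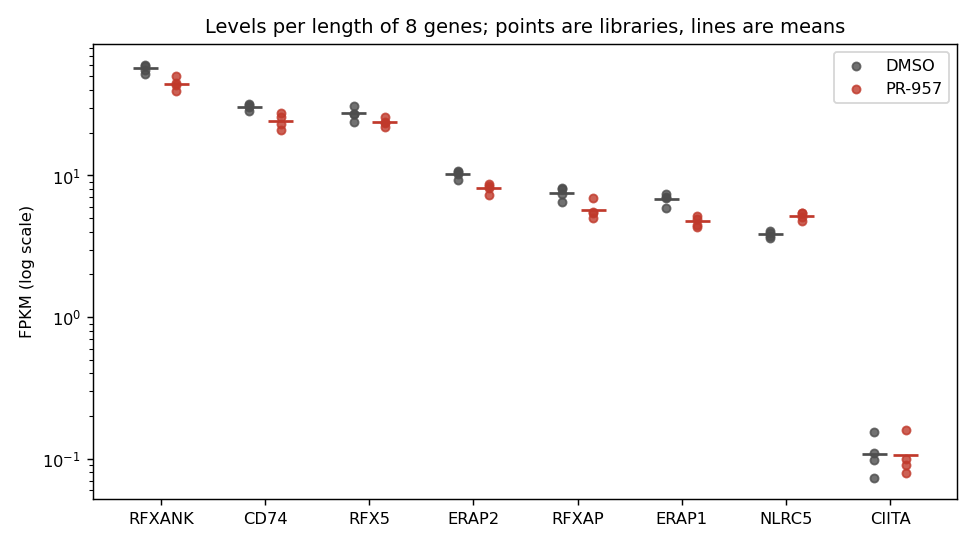
FPKM on a log scale (y axis) of 8 of the 9 genes, ordered by their mean in DMSO, with a point for each library and a line for each group mean (DMSO grey, PR-957 red, 4 libraries each). RFXANK is highest at a DMSO mean of 57.0 FPKM and CIITA lowest at 0.109 FPKM, and NLRC5 is the gene whose PR-957 points lie above its DMSO points.

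The partners of these genes were then described by role, from lists of general knowledge drawn up with earlier results of these data known. Each list is to be read beside the 46.6% of all tested genes that were called and their median of 0.003. Class I heavy chains, class II chains and the TAP transporter are encoded in the MHC. Of the 21 MHC region genes listed, 20 also had models on alternate contigs, so that their levels and zero counts were not read as expression. An effect of these contigs on the changes of these genes was not tested. Of the 21, 7 were tested, 1 was higher and 2 were lower, with a median log2 fold change of -0.15. The class I heavy chains HLA-B and HLA-C fell, with log2 fold changes of -0.74 and -0.28 (edgeR, adjusted p = 1.06e-08 and 0.0006). The class II chain HLA-DRB1 rose from 5 to 31 counts per library in DMSO to 18 to 69 counts in PR-957 libraries, with overlapping groups (log2 fold change 1.49, SE 0.47, edgeR adjusted p = 0.0222). The HLA-DRB1 call passed in 14 of 19 other settings and was lost with limma-voom and when any of 4 libraries was omitted, namely replicates 2 and 3 of the controls and replicates 3 and 4 of the treated cells (log2 fold change 1.15 to 1.49, adjusted p of 0.0514 to 0.0605 in these). PSMB8, the target of PR-957, was at 8.43 CPM in control and 7.60 CPM in treated libraries and did not pass the threshold (edgeR, adjusted p = 0.438). HLA-DPA1, HLA-DPB1, HLA-DMB, HLA-DOA, TAP1 and PSMB9 had 0 counts in all 8 libraries, which allows up to 3 counts per library or 0.131 to 0.188 CPM of fragments counted at these models. All 6 were also annotated on 6 or 7 alternate contigs.

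Class I loading genes outside the MHC moved in both directions, with 2 of 7 higher and 2 lower (median log2 fold change 0.06). The chaperone CALR (calreticulin) rose from 1064 ± 113 to 1559 ± 60.7 CPM and the oxidoreductase PDIA3 from 320.0 ± 20.4 to 450.4 ± 13.3 CPM (SD, n = 4 each, edgeR adjusted p = 2.65e-06 and 7.95e-07). LNPEP, an endosomal aminopeptidase of the same family as ERAP1 and ERAP2, fell with a log2 fold change of -0.42, and the chaperone CANX (calnexin) with -0.25 (edgeR, adjusted p = 3.15e-05 and 0.00303). CANX was also annotated on 1 alternate contig. Of 10 cytosolic peptidases, which cut peptides before they reach the transporter, 1 was higher, 2 were lower and 7 did not pass the threshold (median log2 fold change -0.01). DPP3 rose by 0.36 on the log2 scale, TPP2 fell by 0.19 and BLMH fell by 0.17 (edgeR, adjusted p = 0.000396, 0.00611 and 0.0417). DPP3 passed in all 19 other settings, TPP2 in 17 and BLMH in only 9. With scaling by library totals alone neither TPP2 (log2 fold change -0.11) nor BLMH (-0.09) passed, and the list then had 2 higher and 0 lower genes.

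Of 12 class II processing genes, 8 were tested, 3 were higher and 2 were lower (median log2 fold change 0.34). IFI30, a thiol reductase of the endosome, rose from 4.74 ± 1.00 to 10.7 ± 1.93 CPM (SD, n = 4 each, log2 fold change 1.16, edgeR adjusted p = 8.49e-06). The cathepsins CTSL and CTSB rose by 0.46 and 0.22 on the log2 scale with overlapping groups (edgeR, adjusted p = 0.026 and 0.0273), and each passed in 13 of 19 other settings. CTSB was also annotated on 1 alternate contig. CTSS (cathepsin S), which cleaves the invariant chain, fell with a log2 fold change of -0.22, and SPPL2A, the intramembrane protease that clears its remnant, with -0.29 (edgeR, adjusted p = 0.002 and 0.00074). Of 7 partners of beta-2-microglobulin encoded outside the MHC, 3 were tested and all 3 were called. The metabolite-presenting MR1 fell from 46.1 ± 5.17 to 29.9 ± 1.96 CPM, the lipid-presenting CD1D rose from 11.0 ± 1.26 to 15.3 ± 0.774 CPM and the Fc receptor FCGRT rose from 31.2 ± 3.93 to 41.2 ± 3.68 CPM (SD, n = 4 each, edgeR adjusted p = 2.96e-06, 0.00079 and 0.00112).

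Of 10 factors that share promoters with the RFX complex, CIITA and NLRC5, 1 was higher and 1 was lower, with a median log2 fold change of -0.07. The NF-Y subunit NFYA rose by 0.23 on the log2 scale and ATF1 fell by 0.17 (edgeR, adjusted p = 0.0041 and 0.0433), and the remaining 8 did not pass the threshold. NFYA passed in 18 of 19 other settings and ATF1 in 8. In the interferon-gamma pathway and among the factors that induce NLRC5 and CIITA, 2 of 10 genes were higher and 4 were lower (median log2 fold change -0.22). IRF1, a main inducer of antigen presentation genes, fell from 46.2 ± 2.84 to 32.0 ± 3.12 CPM (SD, n = 4 each, edgeR adjusted p = 1.13e-05). The kinase JAK1 fell by 0.27, IRF2 by 0.26 and the feedback inhibitor SOCS1 by 0.49 on the log2 scale (edgeR, adjusted p = 0.000497, 0.00706 and 0.0199), and passed in 19, 16 and 13 of 19 other settings. IRF8 rose from 278 ± 11.1 to 331 ± 16.7 CPM and the myeloid factor SPI1 rose by 0.20 on the log2 scale (SD, n = 4 each, edgeR adjusted p = 0.000885 and 0.00607). NLRC5 was higher in the same libraries in which IRF1 was lower and IRF8 and SPI1 were higher, and a link between them was not tested. Of the 3 core genes of Polycomb repressive complex 2 (PRC2), which silences antigen presentation genes in some cancers, EED rose by 0.21 with overlapping groups (edgeR, adjusted p = 0.0224, passed in 15 of 19 other settings) and EZH2 and SUZ12 did not pass the threshold.

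**Figure D4:**
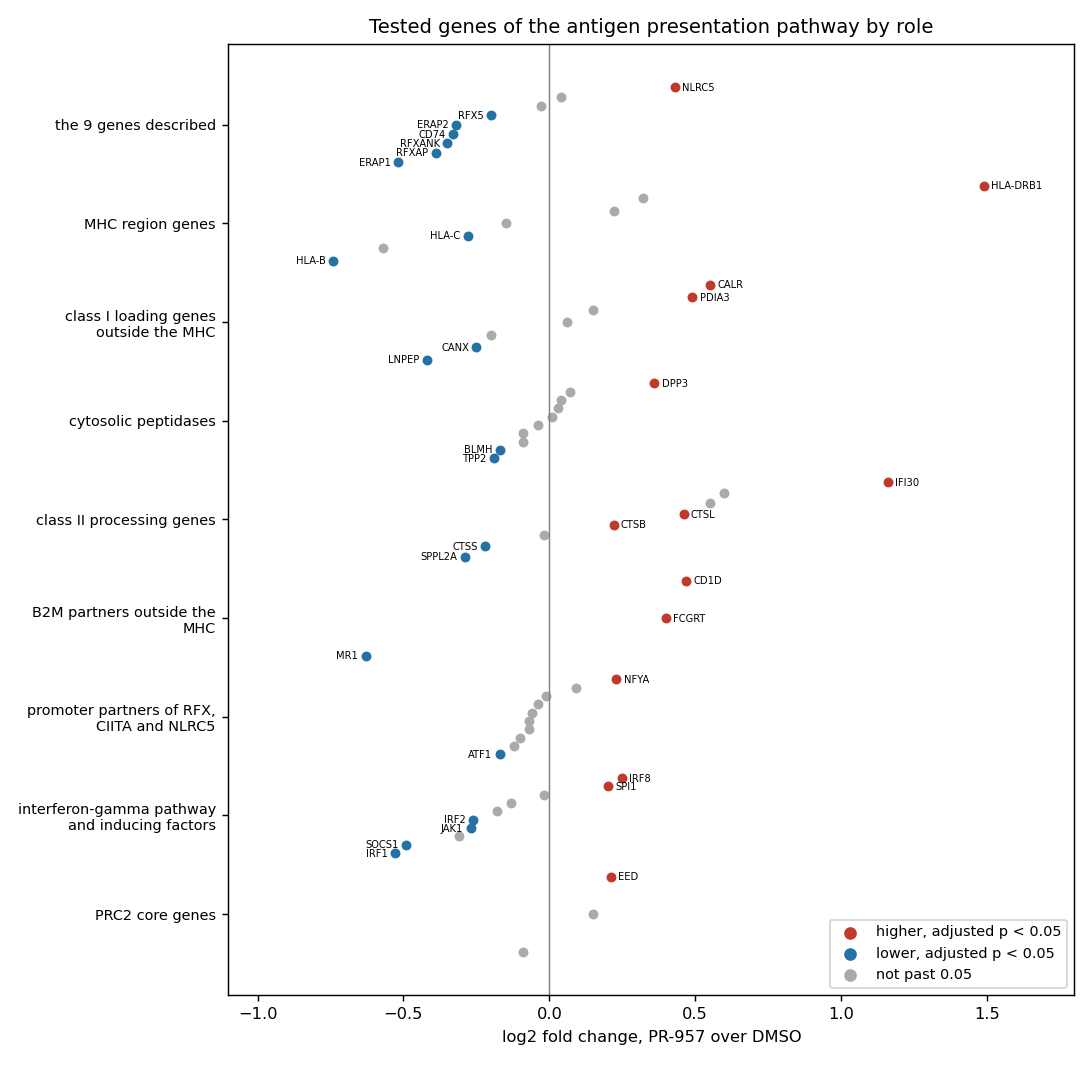
Log2 fold change of PR-957 over DMSO (x axis) for every tested gene of the 9 genes described and of 8 lists of partners (rows), with a point per gene in red if higher or blue if lower by edgeR at the 0.05 threshold, and in grey otherwise. Vertical spread within a row only separates the points. HLA-B and HLA-C lie left of 0 at -0.74 and -0.28, NLRC5 lies right of 0 at 0.43, and IFI30 and HLA-DRB1 lie farthest to the right.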

How the data were processed

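RNA-sequencing libraries of MOLM-13 cells (4 DMSO, 4 PR-957) were grouped by sample title. Per the submitters' processing notes, reads were trimmed with Trimmomatic 0.39 and aligned to hg38 with STAR 2.7.10a. The values deposited by the authors are raw counts of fragments that were not normalised. Per the file headers they were counted with featureCounts 2.0.1 (both ends mapped, reverse strand) against NCBI RefSeq models that include alternate contigs. The counting command named 16 libraries and the table held 8. The other 8 were not analysed here. Rows without values (6) were left out. The authors' table of their own DESeq2 comparison (fold changes and p-values) was not used.

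PR-957 was compared with DMSO by edgeR 4.0.16 in R 4.3.3 (TMM, filterByExpr, glmQLFit with robust estimation, glmQLFTest), two-sided, without covariates, with Benjamini-Hochberg adjustment over the 13179 genes tested. CPM are TMM-normalised. The fit was tested on simulated data. Alternatives were DESeq2 1.42.0, limma-voom (limma 3.58.1), other scalings, other filters, the replicate number as a block, a batch term for replicates 1 and 2 against 3 and 4, each of these subsets alone, and leaving out each library. The sources used here do not say whether replicates were separate cultures, so p-values measure the spread between these libraries, which may be technical. A count of 0 was read as at most 3 counts, which covers counting error only.

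The 9 genes and the 10 gene lists (101 genes) were chosen with earlier results of these data known. Named were all 9 genes, up to 4 genes per list with the largest change among those called without overlap between groups, and MHC genes at 0 in every library. Genes most like a called gene in profile were to be named only for changes of at least 1.5-fold, which left 0. Some genes of these pathways are not reported here. Further genes were picked once their values were known. Exon overlaps, alternate contigs and repeats of 100 bases were taken from the deposited gene models and the hg38 sequence, and promoters from RefSeq.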

Additional observations from a re-analysis of the deposited data

Results flagged for a closer look

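Among the 32 named genes, each of the 64 groups of 4 libraries was examined for a library far from the other 3, and 3 were found, where chance gives about 5% of groups. None of the 9 genes was among them. HLA-B was lowest in PR-957 replicate 4, at 132 CPM against 152 to 153 CPM in the other 3 PR-957 libraries. IFI30 was highest in the same library, at 13.6 CPM against 9.54 to 9.92 CPM. NFYA was highest in DMSO replicate 2, at 67.5 CPM against 63.3 to 63.5 CPM in the other 3 DMSO libraries.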

How the results depend on the processing

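Over 19 alternative settings, ERAP1 (log2 fold change -0.59 to -0.44), ERAP2 (-0.37 to -0.24), NLRC5 (0.36 to 0.51), CD74 (-0.45 to -0.22) and RFXANK (-0.43 to -0.28) kept their direction and passed the threshold in all 19. RFXAP passed in 18 and lost its call on replicates 3 and 4 only (-0.23). RFX5 lost its call with library totals alone (-0.12), on replicates 3 and 4 only (-0.16) and when DMSO replicate 2 or 3 or PR-957 replicate 1, 3 or 4 was left out (-0.26 to -0.14 over all 8 omissions, adjusted p up to 0.119). B2M never passed and turned to -0.01 without DMSO replicate 2 (-0.01 to 0.07 over the omissions). CIITA never passed and changed sign with library totals alone (0.05), on replicates 3 and 4 only (0.02), and without DMSO replicate 4 (0.21) or PR-957 replicate 1 (0.04), 2 (0.09) or 4 (0.00027), within -0.30 to 0.21 over the omissions. Leaving out each library gave 6 to 7 of the 9 genes called and 5305 to 6287 genes in all, against 6143. Counts of list genes called moved by over 1.5 times as follows. On replicates 3 and 4 only there was 1 cytosolic peptidase (3 with all libraries), 1 partner of B2M (3), 3 interferon-gamma genes (6) and 0 PRC2 genes (1). Promoter partners numbered 1 with DESeq2, with upper-quartile scaling and without a filter, 0 on replicates 1 and 2 only, and 1 to 3 over the omissions (2 with all libraries). PRC2 genes numbered 2 with upper-quartile scaling, library totals alone, the replicate block or the 2-level batch term, and 0 to 2 over the omissions. Class II processing genes numbered 3 to 5 over the omissions (5 with all libraries), with 3 without DMSO replicate 2 or PR-957 replicate 1 or 3. Single omissions that ended a call of a named partner were DMSO replicate 1, 2 or 3 or PR-957 replicate 1, 3 or 4 for BLMH, DMSO replicate 2, 3 or 4 or PR-957 replicate 1, 3 or 4 for ATF1, DMSO replicate 2 or 3 or PR-957 replicate 1 or 3 for CTSL, DMSO replicate 1 or 2 or PR-957 replicate 1, 2 or 3 for CTSB, DMSO replicate 1 or 4 or PR-957 replicate 1 or 4 for SOCS1 and DMSO replicate 3 or PR-957 replicate 1 or 2 for EED. The causes were not tested, beyond the fewer libraries in each subset. Scaling by library totals alone moved the median log2 fold change of all genes by 0.08. The sources used here do not say whether libraries with the same replicate number are pairs, and the main fit did not treat them as pairs. Their deviations correlated positively, at 0.151, 0.213, 0.0985 and 0.198, and each was most like its own number. With the replicate number as a block, 6913 genes and 7 of the 9 genes were called, RFX5 at an adjusted p of 0.00129 (edgeR), and no call of the 9 genes changed.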

Other observations

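Ratios of counts within a library, which need no scaling between libraries, were looked at after the values above had been seen and are given as a description. The ratio of ERAP1 to ERAP2 counts was 1.18, 1.26, 1.22 and 1.16 in DMSO replicates 1 to 4 and 1.05, 1.09, 0.986 and 1.08 in PR-957 replicates 1 to 4, so every PR-957 library was below every DMSO library. The ratio of NLRC5 to RFX5 counts was 0.269, 0.247, 0.289 and 0.291 in DMSO replicates 1 to 4 and 0.448, 0.409, 0.391 and 0.444 in PR-957 replicates 1 to 4, again without overlap and in the other direction. In DMSO replicate 4, CD74, RFXANK, RFX5, RFXAP, ERAP1, ERAP2 and NLRC5 were all lowest among the DMSO libraries. Both NLRC5 and RFX5 were thus low there, and their ratio of 0.291 was not low.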
